A study of Mus musculus with 16 samples.

Results

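Ly6G-positive neutrophils sorted from the spleens of germ-free (GF) mice were compared with those of specific pathogen free (SPF) mice across all genes listed. The comparison took every library that the labels assign to spleen, 3 from GF mice (replicates 1, 3 and 4) and 3 from SPF mice (replicates 1, 2 and 4), which were 6 of the 16 libraries of the series. GF mice are raised without living microorganisms, and SPF mice carry a microbiota but none of a list of named pathogens. All animals were C57BL/6 mice that received no treatment named in the labels, which give neither age nor sex and do not say how the animals or organs were handled. Cells were sorted with antibodies to CD45, CD11b and Ly6G and a dye for dead cells (DAPI), and complementary DNA was amplified from their RNA with a low-input kit before paired-end sequencing. The series examined neutrophils of GF mice in blood, spleen and lung, and the spleen comparison asks how they differ with microbial status. Each label names 1 mouse, but none says which libraries shared a mouse, a sort or a sequencing run, so a p-value sets a difference against the spread among these libraries, which may be technical.

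Neutrophils are short-lived phagocytes made in bone marrow, and the spleen holds a resident pool of them beside its red pulp macrophages. Products of the microbiota reach the marrow and the circulation, where receptors for bacterial components and for interleukin 1 act through NF-kB to set how many neutrophils are made, how fast they age and how they respond. Chaperones of the heat shock family hold and refold proteins under heat, oxidation or a heavy synthetic load, and their genes answer to heat shock factor in the cytosol and to the unfolded protein response in the endoplasmic reticulum.

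The spleen libraries were shallow. Reads recovered from the deposited values numbered 196633, 376985 and 147645 in GF spleen and 104213, 640596 and 202341 in SPF spleen. A level is stated in normalised counts: 0.5 reads, which the deposited values hold as an offset, were taken off, and 1 read was worth 1.49 to 7.62 normalised counts. Levels were not divided by transcript length and are compared only within a gene. Between 12.2% and 36.9% of the listed genes had 0 reads in a spleen library. Libraries of unlike status correlated nearly as well as libraries of like status: the median Spearman correlation across genes was 0.832 over the 9 pairs of GF with SPF spleen libraries and 0.842 over the 6 pairs within a status.

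Several spleen libraries stood apart in ways that did not follow microbial status. The transcripts of S100a8, which encodes a calcium-binding protein abundant in neutrophils, measured 18815, 6537 and 5298 normalised counts in GF spleen and 5618, 18672 and 18862 in SPF spleen. GF replicate 1 and SPF replicates 2 and 4 were thus the high libraries, and the share of reads in transcripts shorter than 1000 bases split the libraries in the same way, at 36.7%, 29.6% and 27.8% in GF spleen and 27.7%, 33.0% and 34.7% in SPF spleen. The 4 haemoglobin genes measured summed to 21753.5 normalised counts in GF replicate 1 and to between 36.0 and 99.1 in the other 5. Ly6g, the gene of the sorting antigen, measured 411, 138 and 72.1 in GF spleen and 114, 137 and 174 in SPF spleen, and all 20 listed neutrophil genes were in the deposited table.

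**Figure D1:**
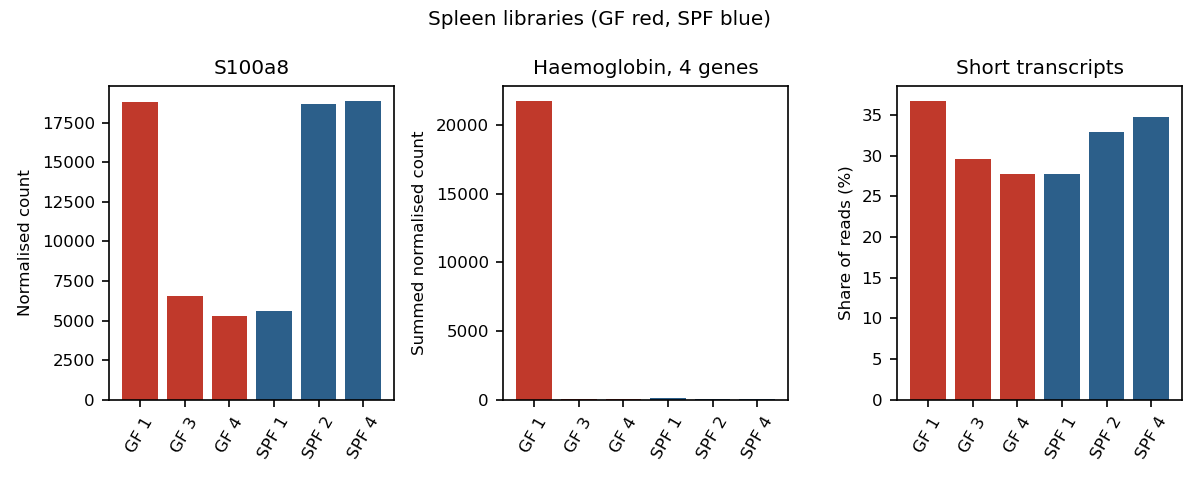
Level of S100a8, summed level of 4 haemoglobin genes (both in normalised counts) and share of reads in transcripts under 1000 bases (percent) in each of the 3 GF (red, left) and 3 SPF (blue, right) spleen libraries. GF 1, SPF 2 and SPF 4 were high in S100a8 and in short transcripts, and GF 1 alone held abundant haemoglobin transcripts.

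Of 8299 genes tested, 27 differed between GF and SPF spleen neutrophils (limma, Benjamini-Hochberg adjusted p under 0.05), which is 0.325% of them. There were 21 genes higher in GF (0.253%) and 6 lower (0.0723%), and in all 27 the 3 GF libraries did not overlap the 3 SPF libraries, a gap that 11.4% of all genes tested showed. Among the higher genes were chaperones, the interleukin 1 decoy receptor Il1r2, the secreted proteins Crispld2, Thbs1, Tcn2 and Trf, the lamin genes Lmnb1 and Lmna of the nuclear envelope and the focal adhesion gene Zyx. Among the lower ones were the Hsp70 partner Bag1, the cold-inducible Rbm3, the stress sensor Keap1 and the NF-kB regulator Bcl3. The median difference of all genes was 0.010 on the log2 scale, and 1032 genes had an unadjusted p under 0.05.

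The count rested on how the spread was estimated and on single libraries. The median within-group SD over all genes was 0.634 in spleen, 0.41 in lung and 0.422 in blood on the log2 scale, so the shared estimate of spread was below that of spleen alone. On simulated data this fit made more false calls than its threshold allows. With the 6 spleen libraries only, 18 genes passed, 17 of them higher in GF, and 13 were among the 27. On the recovered reads edgeR called 12 of 2586 genes (0.464%; 11 shared, with 19 of the 27 tested) and DESeq2 called 25 (14 shared). At an equal depth of 104211 reads per library 11 genes passed, all higher in GF, and 9 were shared. Without SPF replicate 1, the shallowest library, 220 genes passed, 94 higher and 126 lower, and all 27 were among them. Without the 2 libraries under 150000 reads (GF replicate 4 and SPF replicate 1) 188 passed, 58 higher and 130 lower. In both of these sets lower genes outnumbered higher ones, the other way round from the 27. Counts without the others were 43 without GF replicate 1, 27 without GF replicate 3, 10 without GF replicate 4, 15 without SPF replicate 2 and 55 without SPF replicate 4. Hspa8, Il1r2, Tcn2, Glipr2, Tagln2 and Trf passed in the full fit, with spleen libraries only, in edgeR and at equal depth alike.

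**Figure D2:**
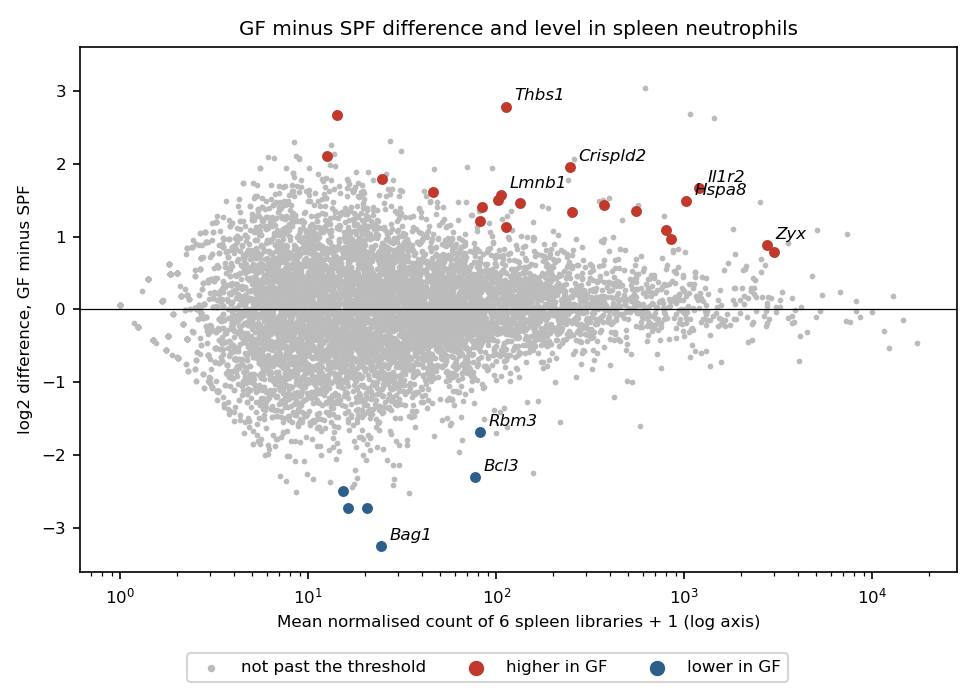
Difference between GF and SPF spleen (vertical, log2 of GF minus SPF) against the mean level of the 6 spleen libraries (horizontal, normalised count + 1, log axis) for the 8299 genes tested, with the 21 genes higher in GF in red and the 6 lower in blue. Lower genes had low levels, while higher genes were found from low to high levels.

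Transcripts of 3 chaperones were higher in GF spleen neutrophils. Hspa8 (ENSMUSG00000015656, chromosome 9, 40800984 to 40810087, GRCm38), the constitutive Hsp70 of the cytosol, measured 1326, 1575 and 1628 normalised counts in GF spleen and 427, 600.2 and 593 in SPF spleen. Every GF library lay far above the highest SPF library, and the log2 difference was 1.49 (SE 0.23, adjusted p = 0.001313 in limma and 0.003051 in edgeR). Dnaja1 (ENSMUSG00000028410, chromosome 4, 40722150 to 40737149), an Hsp40 co-chaperone that hands clients to Hsp70, measured 329.7, 341 and 402 in GF spleen and 90.9, 168 and 174 in SPF spleen (1.34, SE 0.25, adjusted p = 0.009472 in limma). The groups were apart, but the Dnaja1 call was lost without GF replicate 4 (adjusted p = 0.0637, limma) and in edgeR (adjusted p = 0.06749), within a range of 0.003747 to 0.1452 over 34 alternatives. Calr (ENSMUSG00000003814, chromosome 8, 84841850 to 84846934), a lectin chaperone of the endoplasmic reticulum, measured 101, 118.5 and 120.1 in GF spleen and 45.7, 59.6 and 37.6 in SPF spleen (1.21, SE 0.28, adjusted p = 0.04988 in limma). Calr lay just inside the threshold and kept its call in 14 of 34 alternatives, and was lost without GF replicate 3, GF replicate 4, SPF replicate 2 or SPF replicate 4 (adjusted p = 0.06553 to 0.1243, limma).

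Of 21 heat shock and unfolded protein response genes tested, these 3 passed, all higher in GF, against 0.253% of all genes higher. The median difference of the list was 0.43 on the log2 scale, against 0.010 for all genes, 16 of the 21 differences were positive, and 8 genes had GF libraries entirely above SPF libraries, a gap in that direction in 6.22% of all genes. Summed over the list, the level was 3781, 4226 and 4565 normalised counts in GF spleen and 2035, 2736 and 2760.3 in SPF spleen, with no overlap. These list figures include the 3 genes that passed and are not separate from their calls. Hspa8 alone had a mean of 1510 in GF spleen and 540 in SPF spleen, against 4191 and 2510 for the sum. Not past the threshold were Dnajb1, an inducible Hsp40, at 81.2, 109 and 96.1 in GF spleen and 45.7, 73.0 and 65.8 in SPF spleen, and Hsp90ab1, the constitutive cytosolic Hsp90, at 152, 195 and 144 in GF spleen and 107, 128 and 103 in SPF spleen. The unfolded protein response factor Xbp1 measured 629, 632 and 643 in GF spleen and 419, 442 and 559.6 in SPF spleen (adjusted p = 0.4717, limma). The last 3 genes each had separate groups, with smaller differences than the 3 that passed.

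Of the 3 chaperone genes past the threshold, 2 had start regions in the RefSeq promoter table (build GRCm38.p6). They are printed to show the sequences upstream of 2 genes that were higher together, each from 250 bases before to 50 bases after a transcription start, 5′ to 3′ on the gene's strand, with motif matches in capitals. The motifs searched on both strands were the heat shock element core (GAANNTTC or TTCNNGAA, each its own reverse complement) and the endoplasmic reticulum stress element (CCAAT and CCACG with 9 bases between them), and no matches of the motifs overlapped in these windows.
Dnaja1, chr4:40722218-40722517, plus strand: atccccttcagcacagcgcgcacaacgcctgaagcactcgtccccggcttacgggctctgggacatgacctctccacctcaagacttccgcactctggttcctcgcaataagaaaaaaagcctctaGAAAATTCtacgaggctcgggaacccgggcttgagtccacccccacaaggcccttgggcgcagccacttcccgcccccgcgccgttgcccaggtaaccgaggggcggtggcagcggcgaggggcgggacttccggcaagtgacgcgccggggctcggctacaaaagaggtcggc
Calr, chr8:84846882-84847181, minus strand: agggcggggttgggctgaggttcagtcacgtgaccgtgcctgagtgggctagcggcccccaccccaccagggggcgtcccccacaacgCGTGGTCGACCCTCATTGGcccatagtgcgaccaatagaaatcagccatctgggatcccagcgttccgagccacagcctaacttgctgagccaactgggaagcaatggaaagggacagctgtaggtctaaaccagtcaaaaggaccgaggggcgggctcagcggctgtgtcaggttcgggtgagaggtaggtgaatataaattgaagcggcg
The Dnaja1 window held 1 heat shock element core, starting 124 bases before the start site, and 15.1% of the 32851 windows in the table held one. The other 2 Dnaja1 windows in the table had neither motif. The Calr window held 1 endoplasmic reticulum stress element in reverse orientation, starting 162 bases before the start site, and 0.119% of the windows held one. These are letter matches, and binding was not measured.

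The Hsp70 partner Bag1 and the cold-inducible Rbm3 were lower in GF spleen neutrophils. Bag1 (ENSMUSG00000028416, chromosome 4, 40936398 to 40948294), which encodes a nucleotide exchange factor that releases clients from Hsp70, measured 0, 2.47 and 0 normalised counts in GF spleen and 7.62, 59.6 and 70.5 in SPF spleen (adjusted p = 0.004896, limma). This was 1 read in GF spleen and 56 reads in SPF spleen, a ratio of SPF over GF of 42.4 with a 95% counting interval of 7.305 to 1704. SPF replicate 1 and GF replicate 3 each held 1 read of Bag1, and only the scaling for depth set these libraries apart. The Bag1 call was lost without SPF replicate 2 (adjusted p = 0.05693, limma, within a range of 1.778e-05 to 0.2303 over 30 alternatives). Rbm3 (ENSMUSG00000031167, chromosome X, 8138975 to 8145880), an RNA-binding protein induced by mild cold, measured 35.5, 29.6 and 42.05 in GF spleen and 83.8, 112 and 183 in SPF spleen. The difference was -1.68 (SE 0.30, adjusted p = 0.005143 in limma and 0.04607 in edgeR), it kept its call without any single spleen library, and it lost it with spleen libraries only (adjusted p = 0.06076, limma, within a range of 0.000281 to 0.2726 over 34 alternatives). Cirbp, the related cold-inducible RNA-binding protein, did not pass, at 15.2, 12.3 and 0 in GF spleen and 38.1, 56.6 and 28.2 in SPF spleen (-2.06, SE 0.49, adjusted p = 0.06026, limma), and its groups did not overlap. Cirbp passed without GF replicate 1, SPF replicate 1, SPF replicate 4 or SPF lung replicate 2 (adjusted p = 0.0269 to 0.04984, limma).

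The decoy receptor for interleukin 1 was higher in GF spleen neutrophils. Il1r2 (ENSMUSG00000026073, chromosome 1, 40074079 to 40125231), a decoy receptor that binds interleukin 1 without signalling, measured 2267, 1533 and 1616 normalised counts in GF spleen and 427, 517 and 785 in SPF spleen. All GF libraries lay above all SPF libraries (log2 difference 1.67, SE 0.24, adjusted p = 0.001313 in limma and 0.008416 in edgeR), and the call held in 33 of 34 alternatives. Il1rap, the accessory chain that both the signalling receptor and the decoy use, measured 365, 612 and 805 in GF spleen and 168, 217 and 197.5 in SPF spleen. It lay just outside the threshold in the 16-library fit (1.53, SE 0.34, adjusted p = 0.05373, limma) and passed in edgeR (adjusted p = 0.0267), with a range of 0.0005985 to 0.1759 over 34 alternatives. In limma Il1rap passed without GF replicate 1 (adjusted p = 0.02443), GF lung replicate 3 (0.04974), SPF lung replicate 1 (0.0286) or SPF lung replicate 2 (0.001893). Il1b, the cytokine itself, did not pass, at 2511, 3310.5 and 3082 in GF spleen and 2817, 6318 and 6282 in SPF spleen (-0.71, SE 0.25, adjusted p = 0.26, limma), and its groups overlapped at SPF replicate 1. Without that library Il1b passed as lower in GF (-1.09, adjusted p = 9.766e-05, limma), as it did without the 2 libraries under 150000 reads (-1.13, adjusted p = 0.0003273, limma). Both sets leave out the SPF library that overlapped the GF ones and rest on SPF replicates 2 and 4, so they are not separate support.

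Among 34 NF-kB targets and inflammatory mediators, 1 passed, lower in GF, with a list median of 0.08. It was Bcl3 (ENSMUSG00000053175, chromosome 7, 19808462 to 19822770), a nuclear IkB protein that works with NF-kB subunits, at 25.4, 19.75 and 12.01 in GF spleen and 30.5, 169.8 and 197.5 in SPF spleen (-2.30, SE 0.51, adjusted p = 0.04988, limma). Its SPF replicate 1 stood close to the GF libraries, and leaving out any 1 of GF replicates 1, 3 and 4 or SPF replicates 2 and 4 took the call away (adjusted p = 0.0646 to 0.1759, limma). Nfkbia, the inhibitor that NF-kB induces, measured 959, 472 and 462.5 in GF spleen and 114, 258 and 536 in SPF spleen (1.22, adjusted p = 0.292, limma), with overlap, and passed without SPF replicate 4 (1.76, adjusted p = 0.01077, limma). None of 31 pattern recognition genes passed. Cd14, the co-receptor for lipopolysaccharide, measured 421, 373 and 414 in GF spleen and 38.1, 104 and 197.5 in SPF spleen, with separate groups but wide SPF spread (2.06, SE 0.49, adjusted p = 0.121, limma). Cd14 passed without SPF replicate 1 (adjusted p = 0.03876, limma) or SPF replicate 4 (adjusted p = 0.009399, limma). The median of that list was 0.28, and 3 of its genes had GF libraries entirely above SPF libraries, a share near the 6.22% of all genes.

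Crispld2 and Thbs1 encode secreted proteins and had among the larger differences. Crispld2 (ENSMUSG00000031825, chromosome 8, 119992438 to 120052793), whose product binds lipopolysaccharide, measured 426, 343 and 408 normalised counts in GF spleen and 91.5, 112 and 94.05 in SPF spleen (log2 difference 1.95, SE 0.32, adjusted p = 0.00305 in limma and 0.003051 in edgeR). Its spread within each group was small against the gap, though the call was lost at equal depth (adjusted p = 0.0598, limma, within a range of 5.861e-06 to 0.08035 over 34 alternatives). Thbs1 (ENSMUSG00000040152, chromosome 2, 118111876 to 118127133), thrombospondin 1, a matrix glycoprotein, measured 142, 247 and 198 in GF spleen and 45.7, 23.8 and 14.1 in SPF spleen (2.78, SE 0.47, adjusted p = 0.02551 in limma and 0.003051 in edgeR). The Thbs1 call in limma was lost without GF replicate 3, GF replicate 4 or SPF replicate 2 (adjusted p = 0.07305, 0.08909 and 0.07982, within a range of 7.538e-06 to 0.1762 over 34 alternatives). The platelet list, whose cells also hold thrombospondin, had summed levels of 15.2 to 66.1 in GF spleen and 22.9 to 46.2 in SPF spleen, with 0 of its 10 genes past the threshold and Treml1 at 0 in all 6 libraries.

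Carriers of a vitamin and of iron were both higher. Tcn2 (ENSMUSG00000020432, chromosome 11, 3917192 to 3932159), transcobalamin, which carries vitamin B12 to cells, measured 806, 837 and 733 normalised counts in GF spleen and 274, 329 and 319.7 in SPF spleen (log2 difference 1.36, SE 0.22, adjusted p = 0.002128 in limma and 0.006582 in edgeR). Trf (ENSMUSG00000032554, chromosome 9, 103204001 to 103230444), transferrin, the iron carrier of plasma, measured 1146, 1150.05 and 1068 in GF spleen and 518, 571 and 635 in SPF spleen (0.96, SE 0.21, adjusted p = 0.02592 in limma and 0.04607 in edgeR). Both genes had tight groups well apart, but the Trf call in limma was lost without GF replicate 1, 3 or 4 or SPF replicate 2 (adjusted p = 0.05243 to 0.0841). The 15 measured markers of red pulp macrophages, which recycle iron, summed to 3748 to 4685 in GF spleen and 4383 to 5082 in SPF spleen, with none past the threshold. The iron exporter gene Slc40a1 led them, at 1430.3, 2074 and 2072 in GF spleen and 2866, 2529 and 2163 in SPF spleen. As 1 gene made up a large part of the sum, the sum does not by itself show that macrophages were present. Of the 12 macrophage markers tested, 8 differences were positive and 4 negative, with a median of 0.17. GF libraries lay entirely above SPF libraries in 2 of them, against 6.22% of all genes, and entirely below in 2, against 5.18%. Those above were Vcam1 (log2 difference 1.55) and Axl (1.73), and Slc40a1 was among those below. The part of macrophage RNA in the Tcn2 and Trf differences was not tested.

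Transcripts of 2 lamins, the filament proteins that line the nuclear envelope, were higher in GF spleen neutrophils. Lmnb1 (ENSMUSG00000024590, chromosome 18, 56707813 to 56753424), lamin B1, measured 132, 175 and 168 normalised counts in GF spleen and 38.1, 47.7 and 70.5 in SPF spleen (log2 difference 1.57, SE 0.27, adjusted p = 0.00305 in limma and 0.04607 in edgeR). The Lmnb1 call lay just inside the threshold with spleen libraries only (adjusted p = 0.04305, limma). It was lost at equal depth (adjusted p = 0.1172, limma, within a range of 0.001101 to 0.1172 over 34 alternatives). Lmna, the gene of lamins A and C, which mature neutrophils hold at low level, measured 25.4, 14.8 and 36.0 in GF spleen and 0, 2.98 and 0 in SPF spleen (adjusted p = 0.005857, limma). That was 17 reads in GF spleen and 2 in SPF spleen, a ratio of GF over SPF of 11.2 with a 95% counting interval of 2.665 to 100.2. The Lmna call was lost without GF replicate 4 (adjusted p = 0.05833, limma) and with spleen libraries only (adjusted p = 0.1983, limma). The groups were apart in both genes, and the lamins were not a list of their own.

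Zyx, Tagln2, Adgre5, Cyth1 and Glipr2 were also higher in GF spleen neutrophils. Zyx, zyxin of focal adhesions, measured 3738, 3538 and 3459.7 normalised counts in GF spleen and 2073, 1878 and 1886 in SPF spleen (log2 difference 0.88, SE 0.17, adjusted p = 0.01126, limma). Tagln2, an actin-binding protein of the calponin family, measured 533, 570.3 and 517 in GF spleen and 145, 192 and 273 in SPF spleen (1.44, SE 0.29, adjusted p = 0.02535, limma). Adgre5, the adhesion receptor CD97, measured 3915, 3917 and 3478 in GF spleen and 1714, 2156 and 2769 in SPF spleen (0.79, SE 0.17, adjusted p = 0.03129, limma). The groups were apart in all 3. Each lost its call without GF replicate 4 or SPF replicate 2, and Tagln2 and Adgre5 also without GF replicate 1 or 3 (adjusted p = 0.05577 to 0.1022 over these, limma). In edgeR Tagln2 passed (adjusted p = 0.0267), while Zyx (0.08556) and Adgre5 (0.1664) did not. Adgre5 also lost its call with spleen libraries only (adjusted p = 0.09257, limma) and in DESeq2 (adjusted p = 0.06335). Cyth1, an exchange factor for ARF GTPases that acts on integrin adhesion, measured 238, 170.3 and 180.2 in GF spleen and 76.2, 68.5 and 61.1 in SPF spleen (1.46, adjusted p = 0.01137, limma). Glipr2, a Golgi-associated protein, measured 1121, 970.2 and 1141 in GF spleen and 412, 544 and 574 in SPF spleen (1.09, adjusted p = 0.01137, limma). Both had groups well apart, and both calls were lost without GF replicate 4 (adjusted p = 0.0637 for Glipr2 and 0.05577 for Cyth1, limma), that of Cyth1 also without SPF replicate 2 (0.06395). The 21 genes of the actin cytoskeleton list, which holds none of these, had 0 past the threshold and a median of 0.06.

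Of the remaining higher genes, Prkch, Zfyve26, Amz1, Apaf1, Smim3 and Ehd4 had differences of 1.13 to 2.11 on the log2 scale. Prkch encodes a protein kinase C, Zfyve26 a protein of lysosome renewal and Apaf1 the scaffold of the apoptosome. Apaf1 measured 71.0, 54.3 and 84.1 normalised counts in GF spleen and 22.9, 25.3 and 14.1 in SPF spleen (adjusted p = 0.04988, limma) and kept its call in 11 of 32 alternatives. Ehd4, of endosome recycling, rested on 14 reads in GF spleen and 2 in SPF spleen, a ratio of GF over SPF of 9.245 with a 95% counting interval of 2.123 to 83.8. Each of these 6 genes lost its call without GF replicate 4 or SPF replicate 2, among others, with adjusted p of up to 0.1358 with 1 spleen library left out (limma). All 6 also lost it at equal depth and with spleen libraries only (adjusted p = 0.09057 to 0.5657 with spleen libraries only, limma).

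The remaining lower genes had few reads. Keap1, the adaptor that marks the antioxidant factor Nrf2 for degradation, measured 5.07, 0 and 6.01 normalised counts in GF spleen and 45.7, 32.8 and 28.2 in SPF spleen (adjusted p = 0.009472, limma). This was 2 reads in GF spleen and 34 in SPF spleen, a ratio of SPF over GF of 12.9 with a 95% counting interval of 3.30 to 110.6. Phf10, a subunit of a chromatin remodelling complex, had 2 reads in GF spleen and 33 in SPF spleen (ratio of SPF over GF 12.5, interval 3.195 to 107.5, adjusted p = 0.01137 in limma). March5, a ubiquitin ligase of the outer mitochondrial membrane, had 3 reads in GF spleen and 25 in SPF spleen (ratio of SPF over GF 6.31, interval 1.925 to 32.65, adjusted p = 0.01422 in limma). In all 3 genes the groups were separate, and all 3 lost their call with spleen libraries only and at equal depth. Single libraries took calls away too: GF replicate 3 that of Keap1, GF replicate 4 those of Phf10 and March5, and SPF replicate 2 that of Phf10 (adjusted p = 0.06234 to 0.06944, limma). Intervals here cover counting error only.

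**Figure D3:**
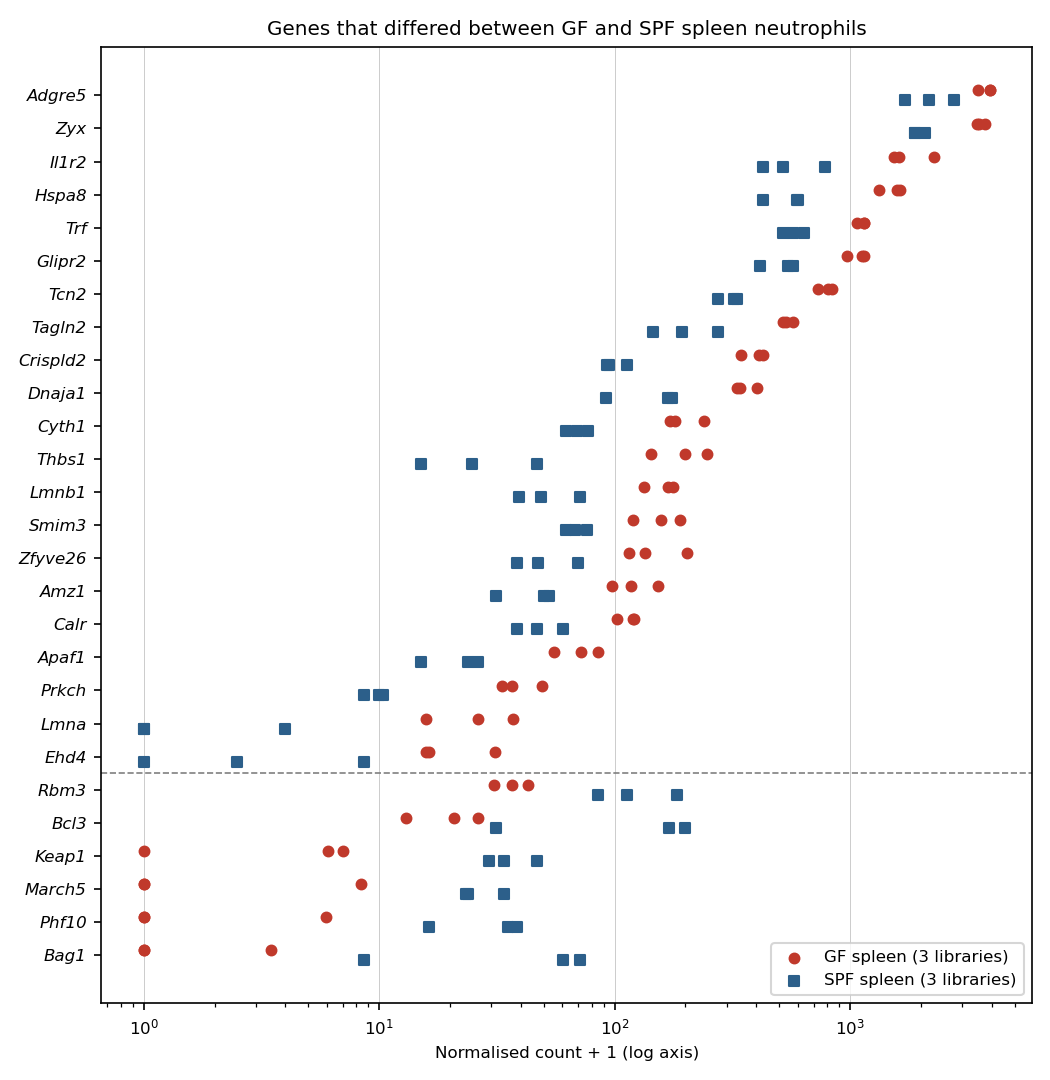
Level of each of the 27 genes past the threshold in the 3 GF (red circles) and 3 SPF (blue squares) spleen libraries, as normalised count + 1 on a log axis, with the 21 genes higher in GF above the dashed line and the 6 lower in GF below it. The groups were apart in every gene, and in Bcl3 and Bag1 1 SPF library lay near the GF libraries.

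The glucocorticoid response list had the largest positive median of the function lists, at 0.65 over 14 genes tested, with 12 positive differences. Its summed level overlapped between the groups, at 16495, 11866 and 13880 normalised counts in GF spleen and 5793, 12016 and 15199 in SPF spleen. Il1r2, which stands in this list too, was the 1 gene that passed, against 0.253% of all genes higher, and 5 of the 14 had GF libraries entirely above SPF libraries, against 6.22% of all genes. Fkbp5, a co-chaperone of the glucocorticoid receptor and a common marker of its activity, measured 45.6, 37.0 and 66.1 normalised counts in GF spleen and 0, 11.9 and 18.8 in SPF spleen (2.18, SE 0.57, adjusted p = 0.07854, limma). Per1, a clock gene that glucocorticoids induce, measured 15.2, 14.8 and 18.02 in GF spleen and 7.62, 5.96 and 0 in SPF spleen (1.49, adjusted p = 0.1514, limma). Both had separate groups at low levels and neither passed. Without SPF replicate 4 Fkbp5 passed (adjusted p = 0.0331, limma), and without SPF replicate 1 Per1 passed (adjusted p = 0.01415, limma).

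No gene of the granule protein lists passed. Of 16 secondary and gelatinase granule genes tested, 14 had positive differences, the median was 0.47 against 0.010 for all genes, and 6 had GF libraries entirely above SPF libraries, against 6.22% of all genes. Their summed level overlapped, at 84249, 52466 and 42183 normalised counts in GF spleen and 39255, 46935 and 42966 in SPF spleen. Of 4 primary granule and precursor genes tested, 3 had negative differences, and the median was -0.165. Cd177, a neutrophil surface antigen stored in granules, measured 1633, 999.6 and 966 normalised counts in GF spleen and 609.8, 718 and 644 in SPF spleen (0.82, SE 0.22, adjusted p = 0.1005, limma). Chil3, a chitinase-like protein, measured 3632, 2153 and 1736 in GF spleen and 899, 1436 and 1039 in SPF spleen (1.11, SE 0.42, adjusted p = 0.288, limma). Both had separate groups, with GF replicate 1 the highest library.

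Interferon response genes had 0 of 48 past the threshold, a median of 0.31, and 36 positive differences. Within the list 6 genes had GF libraries entirely above and 3 entirely below SPF libraries, against 6.22% and 5.18% of all genes. Isg15, a ubiquitin-like modifier, measured 96.4, 81.5 and 54.1 normalised counts in GF spleen and 15.2, 46.2 and 42.3 in SPF spleen (1.16, SE 0.32, adjusted p = 0.1013, limma). Antigen presentation genes of MHC class I had a median of -0.26, with 13 of 16 differences negative, and the 1 past the threshold, higher in GF, was Calr. Immediate early genes had 0 of 25 past the threshold and a median of -0.13. Fos, a transcription factor induced within minutes of stimulation, measured 208, 195 and 306 in GF spleen and 229, 1609 and 949.9 in SPF spleen (-1.60, SE 0.56, adjusted p = 0.2717, limma), and SPF replicate 1 lay among the GF libraries. Without SPF replicate 1, Fos passed as lower in GF (-2.40, adjusted p = 6.922e-08, limma), as it did without the 2 libraries under 150000 reads (-2.60, adjusted p = 5.177e-09, limma). Both sets leave out the SPF library that lay among the GF ones and rest on SPF replicates 2 and 4. They are not separate support for a lower level. Ribosomal proteins (0 of 77 past the threshold, median -0.09) and nuclear oxidative phosphorylation genes (0 of 76, median -0.11) lay near the median of all genes.

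**Figure D4:**
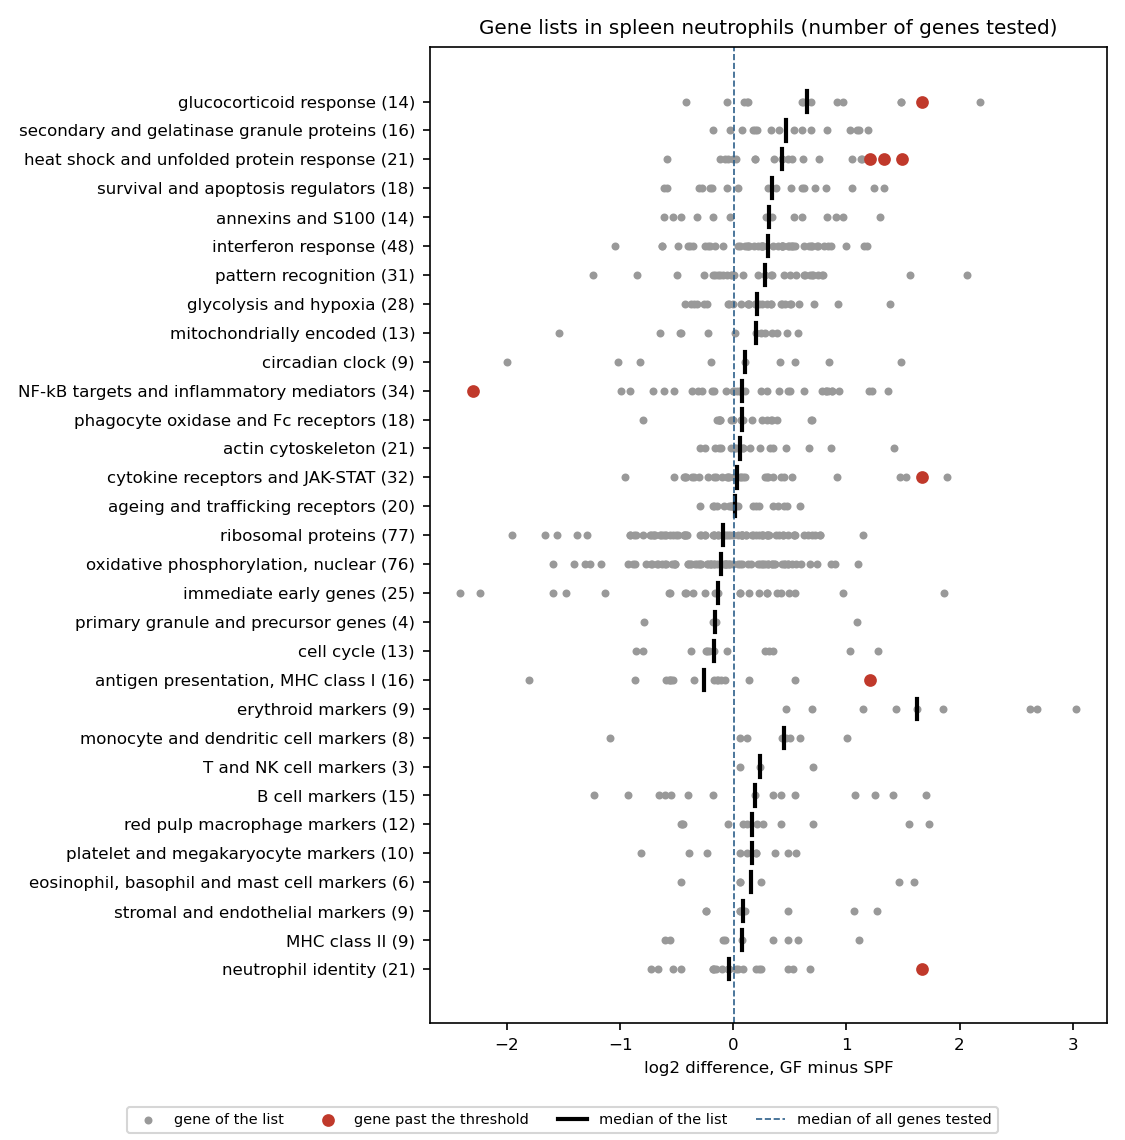
Difference between GF and SPF spleen (log2, GF minus SPF) of every tested gene of 31 lists (grey points), with genes past the threshold in red, the median of each list as a black bar and the median of all genes as a dashed line. Points of the upper lists belong to functions and those of the lower ones to cell types, and red points are few in each.

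Markers of other cells did not pass in any cell type list. In bulk RNA, fewer cells of a type and less RNA per cell cannot be told apart. B cell markers summed to 629, 780.1 and 709 normalised counts in GF spleen and 823, 969.6 and 776 in SPF spleen, led by Ighm, the heavy chain of immunoglobulin M, at 390.5, 405 and 426 in GF spleen and 671, 697 and 513 in SPF spleen (adjusted p = 0.1913, limma). T and NK markers summed to 6.0 to 25.4 in GF spleen and 7.4 to 18.8 in SPF spleen, and Lck was at 0 in all 6 libraries. Monocyte and dendritic cell markers summed to 1425 to 1574 in GF spleen and 1138 to 1358 in SPF spleen, without overlap, and F13a1 was at 0 in all 6. The list of eosinophil, basophil and mast cell markers summed to 2643, 4009 and 4721 in GF spleen and 968, 1254 and 2221 in SPF spleen, also without overlap, and nearly all of it was Hdc, the enzyme that makes histamine, at 2531, 3873 and 4607 in GF spleen and 869, 1156 and 2108 in SPF spleen (1.47, SE 0.37, adjusted p = 0.1337, limma). Hdc passed without SPF replicate 4 (adjusted p = 0.01691, limma) or SPF lung replicate 2 (adjusted p = 0.03272, limma). Gata2 was at 0 in all 6 libraries. Erythroid markers were high in GF replicate 1 alone, and without that library 19 of the 27 genes kept their call. The part of any of these cells in the differences was not tested.

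The same GF minus SPF contrast was fitted in lung (3 libraries against 3) and blood (2 against 2) in the same model. Blood libraries were of unlike depth, at 2555255 and 132798 reads in GF and 2870559 and 3033941 in SPF. In the shallow one, GF blood replicate 3, 37.7% of the listed genes had 0 reads, so the blood calls rest in part on a sparse library. In lung 2 genes passed (0.0241%) and in blood 110 (1.33%), 66 higher in GF (0.795%) and 44 lower (0.53%). Of the 27 spleen genes, 20 had the same sign in lung, against 53.7% of all genes, and 1 passed there. Of the 27, 21 had the same sign in blood, against 52.0% of all genes, and 2 passed there. Crispld2 was the gene past the threshold in lung too, with differences of 1.95 in spleen, 1.87 in lung (adjusted p = 0.01378, limma) and 1.49 in blood (adjusted p = 0.05192, limma). Thbs1 and Cyth1 were those past it in blood, at 3.06 (adjusted p = 0.02438, limma) and 1.41 (adjusted p = 0.04118, limma), while Thbs1 differed by 0.09 in lung. Il1rap passed in blood as well (1.73, adjusted p = 0.04118, limma).

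**Figure D5:**
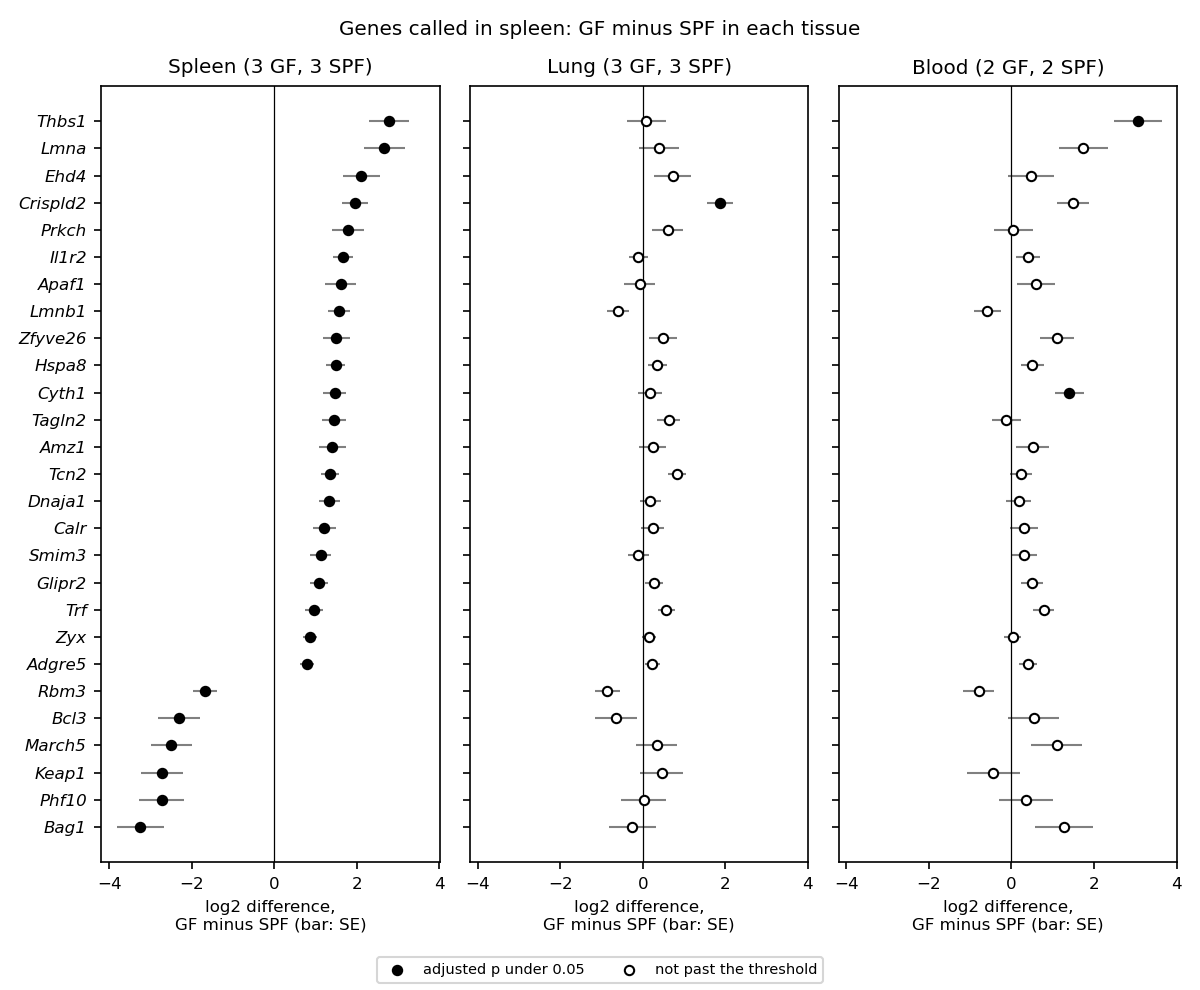
Difference between GF and SPF (log2, GF minus SPF, with SE as bars) of the 27 genes past the threshold in spleen, shown in spleen, lung and blood, with filled points where the adjusted p was under 0.05. Crispld2 was filled in spleen and lung, Thbs1 and Cyth1 in spleen and blood, and Lmnb1 lay on opposite sides of 0 in spleen and in the other two.

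A difference that was called in spleen and not elsewhere was tested directly as an interaction. Against lung, 1 gene passed (0.012%), Lmnb1, whose GF minus SPF difference was 1.57 in spleen and -0.59 in lung (spleen minus lung 2.17, SE 0.38, adjusted p = 0.02347, limma). The count against lung was 0, and the Lmnb1 call lost, without any 1 of GF spleen replicates 3 and 4, SPF spleen replicate 2, GF lung replicate 3 and SPF lung replicates 2 and 3, and it was 48 without SPF spleen replicate 1. Against blood, 63 genes passed (0.759%), 34 with a higher difference in spleen (0.41%) and 29 with a lower one (0.349%). Among the 63 were 3 of the 27, Lmnb1 (spleen minus blood 2.16, SE 0.42, adjusted p = 0.01905, limma), Bag1 (-4.52, SE 0.90, adjusted p = 0.01914, limma) and March5 (adjusted p = 0.02643, limma). Hspa8 and Dnaja1 did not pass either interaction (adjusted p = 0.4581 and 0.5327 against lung, 0.19 and 0.1623 against blood, limma), and Il1r2 lay close to the threshold against lung (adjusted p = 0.05166, limma). Apart from these, a difference between spleen and another tissue was not shown for the 27 genes. The count against blood rested on 2 libraries a group and was 2 without GF blood replicate 3 and 3 without SPF blood replicate 3.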

How the data were processed

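Neutrophil RNA from 16 libraries was sequenced as 61-base read pairs, per the labels' protocols. The submitters' processing notes name CASAVA, RSEM 1.3.1, limma and mm10, and the annotation and scaling are not given in the sources used here. The deposited table holds 1 linear signal per gene and library for 10296 genes, whose low values step as if 0.5 had been added to RSEM expected counts before scaling. Reads were recovered by inverting it, and 94.3% to 98.7% of the values under 10 reads in a spleen library were whole to within 0.05.

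Testing was limited to the 8299 genes that reached a value of 10 in 2 or more libraries (1997 were removed). The 6 group means were fitted together in limma 3.58.1 on log2(value + 1) with a robust, trended prior. Tests were two-sided, with Benjamini-Hochberg adjustment and a threshold of 0.05. This scale understates the change of low genes. As alternatives on reads, edgeR 4.0.16 (quasi-likelihood) and DESeq2 1.42.0 were run on the 6 spleen libraries. The fitting script was tested on simulated spleen counts with 200 genes changed. The changed genes were drawn only from genes with more spleen reads than Bag1, Keap1, Phf10, March5, Lmna and Ehd4 had. All genes shared 1 dispersion (0.05), so the recovery does not cover genes as low as these. The 16-library fit recovered 62 of the 200 with 14 false calls at a 2-fold change, and 185 with 35 at 4-fold, more false calls than its threshold allows. The fit of the 6 spleen libraries did not exceed it, recovering 28 with 1 false call at 2-fold and 180 with 4 at 4-fold. Of the false calls of the 16-library fit, 6 of the 14 and 19 of the 35 were in genes with enough reads to be drawn. Ratios of summed reads have exact 95% binomial intervals.

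The text draws from the 12 genes of smallest p in each direction (mean of at least 10, at least 10 reads, no overlap), every gene past the threshold in a list with up to 4 other members, 5 genes per direction and interaction, the 10 most abundant genes and the sorting antigens; other genes past the threshold were added because there were only 27. Genes and the 31 lists were chosen with earlier results of these data known. Coordinates are those of GENCODE M21 (GRCm38), where 10275 identifiers matched. Genes with near-identical copies, such as the haemoglobins, Chil3 and Cd177, and overlapping genes are uncertain, since no strand-aware counting was stated. A marker gene is not reported here.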

Additional observations from a re-analysis of the deposited data

Results flagged for a closer look

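The difference between GF and SPF was unlike in spleen and lung for 1 gene and in spleen and blood for 63 genes, by a test of the difference itself (limma interaction, adjusted p under 0.05). Lmnb1, lamin B1, was the gene unlike in lung (spleen minus lung 2.17 on the log2 scale) and was unlike in blood too (spleen minus blood 2.16). The following are spleen minus blood values in the log2 GF minus SPF difference. Bag1, the Hsp70 partner, was at -4.52, on 1 read in GF spleen. Cmas, which activates sialic acid, was at -4.76, with 0 reads in GF spleen and 18 in SPF spleen. The actin-severing gene Cfl1 was at 2.0, the nuclear long noncoding RNA Malat1 at 2.60, the autophagy gene Gabarap at 1.91 and the proton pump subunit Atp6v0d1 at 2.83. Abtb2 was at -2.51, Hiatl1 at -1.98 and Cpsf1, of the mRNA cleavage complex, at -3.50. In spleen itself none of the last 7 passed, nor did Cmas, but without SPF spleen replicate 1 Atp6v0d1 passed as higher in GF (adjusted p = 0.004879, limma) and Cmas as lower (adjusted p = 0.0156, limma).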

How the results depend on the processing

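None of the 27 genes changed direction in any of the alternatives run, and none passed in every one. For the spleen comparison the count (27) was 14 without a trended and robust prior (4 higher, 10 lower), 49 with array weights, 11 at equal depth, 12 in edgeR, 188 without the 2 shallow libraries and 82 with the share of reads in short transcripts as a covariate, which kept all 27. The last 2, and a fit without a pseudocount, were chosen after seeing the data. Leaving out 1 library gave 10 (without GF spleen replicate 4) to 220 (without SPF spleen replicate 1), with 43 without GF spleen replicate 1, 15 without SPF spleen replicate 2 and 55 without SPF spleen replicate 4. The other alternatives gave 18 to 37, the replicate block aside. The cause of these shifts was not tested.

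For spleen against lung the count (1) was 4 with a pseudocount of 5, no filter, a minimum of 100, median-ratio or TMM rescaling, 3 with quantile rescaling, 0 without a trended and robust prior, 23 with array weights, 44 without the 2 shallow libraries, 6 with the covariate, and 0 to 48 with 1 library left out. For spleen against blood the count (63) was 0 without that prior, 101 with array weights, 28 at equal depth, 270 without the 2 shallow libraries, 110 with the covariate, and 2 to 207 with 1 library left out. Quantile rescaling gave 20 higher and 35 lower there, against 34 and 29. The libraries that moved it by over 1.5 times were, by group, GF and SPF blood (both of each), GF lung (all 3), GF spleen replicate 3 and all 3 of SPF spleen. edgeR and DESeq2 were run on the 6 spleen libraries only, and not for interactions.

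GF and SPF spleen share only the replicate numbers 1 and 4, which the labels do not tie to a mouse or day. Deviations of same-numbered libraries correlated at -0.079 and -0.035, and those of the other pairs of GF with SPF libraries at -0.106 to 0.11. So few pairs cannot show whether libraries of the same number shared a mouse, a sort or a run. With the replicate block 51 genes differed in spleen, 26 of the 27 among them, 4 were unlike in lung and 16 in blood.

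Of the genes that the text names, 2 that did not pass reversed. Ly6g did so without GF spleen replicate 1 (-0.47, against 0.75 without GF spleen replicate 4). Lck, at 0 reads in all 6 spleen libraries, did so without GF spleen replicates 1 (-0.02) or 4 (-0.11) or SPF spleen replicate 2 (-0.34, against 0.39 without SPF spleen replicate 1). These Lck values are no change in expression: they come from the scaled offset of 0.5 reads, which differs with depth. Other genes drawn by the same rules that did not pass and are not named also reversed in some alternatives. At 104213 to 640596 reads, a gene of few normalised counts rested on single reads.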
